A study of Mus musculus with 6 samples.

Results

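Transthyretin (*Ttr*) and 8 other genes that mark the choroid plexus, *Kl*, *Folr1*, *Clic6*, *Prlr*, *Aqp1*, *Kcnj13*, *Otx2* and *Slc4a5*, were followed across 6 RNA-seq libraries of mouse prefrontal cortex. They are 9 of the 56923 genes listed in the count tables. The genes were taken as known markers of this tissue, and the set was chosen by the *Ttr* counts, since 1 wild-type library, WT replicate 2, had been seen to hold far more *Ttr* than the rest. It was asked whether that *Ttr* excess came with the other markers. The high *Ttr* value of this library, and every value of this library set against the other 5, is therefore a description and carries no test.

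Of the 6 libraries, 3 came from constitutive *Pla2g4e* knockout mice (KO) and 3 from wild-type mice (WT). The knockout carries the *Pla2g4e* tm2a allele in all cells, in which splicing into a LacZ gene-trap cassette on a C57BL/6N background is expected to abolish the gene's function. Per the study's methods, the tissue was the anterior end of the brain taken off with a coronal cut, and both sexes were used in the study. The labels give no age, sex, litter or batch for these samples and do not state that each came from a different mouse, so the spread between libraries may be partly technical.

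The choroid plexus is a fringe of vascular tissue inside the brain ventricles, covered by a single sheet of epithelial cells that secretes cerebrospinal fluid. Its epithelium makes transthyretin, the carrier of thyroxine and, with retinol-binding protein, of retinol, in very large amounts, and in RNA from other brain regions *Ttr* is well known as a sign of a trace of this tissue. The other members serve the same cells in different ways. *Otx2* is a homeobox transcription factor needed to form and keep the choroid plexus. *Aqp1* (a water channel), *Kcnj13* (a potassium channel), *Slc4a5* (a sodium bicarbonate cotransporter) and *Clic6* (of the chloride intracellular channel family) act in the movement of water and ions. *Kl* (Klotho, co-receptor of a fibroblast growth factor), *Prlr* (the prolactin receptor) and *Folr1* (folate receptor alpha) bind hormones and a vitamin. The prefrontal cortex holds no choroid plexus.

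The libraries held 11792463 to 14594230 fragments (read pairs) assigned to genes, and levels are given as CPM, fragments per 1000000 of a library after its total was rescaled with edgeR's TMM factors. Of the 9 members, 7 reached the minimum for testing, 6 fragments in 1 library or more, whereas *Folr1* (at most 4 fragments) and *Slc4a5* (at most 5) did not, and *Otx2* reached that number only through WT replicate 2. Markers of cortical neurons, such as the glutamate transporter *Slc17a7*, summed to 2185 to 2589 CPM in the 5 other libraries and to 2459 CPM in WT replicate 2. *Pla2g4e* itself had 88, 97 and 102 fragments in the KO libraries and 100, 138 and 168 in the WT libraries, so the groups overlapped and the transcript count did not separate them. Each group held 1 library with *Xist*, the RNA of the inactive X chromosome, which had 20521 fragments in KO replicate 1 and 12365 in WT replicate 1 and at most 3 elsewhere. KO replicate 1 also stood apart in genes of the olfactory bulb, which lies in front of the prefrontal cortex, with a summed level of 335.7 CPM over 7 genes against 22.5 to 84.4 CPM in the other 5 libraries.

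*Ttr* (ENSMUSG00000061808.5, chromosome 18, 20798337 to 20807378, plus strand, GRCm39) stood at 26.9 CPM in WT replicate 2, from 328 fragments, with an exact 95% Poisson interval of 24.0 to 29.9 CPM. In the other WT libraries it was at 1.72 CPM (22 fragments) in replicate 1 and 2.12 CPM (27 fragments) in replicate 3. In the KO libraries it was at 0.541, 0.251 and 0.625 CPM, from 8, 3 and 8 fragments. WT replicate 2 therefore held 43.0 times the median of the other 5 libraries and 12.7 times the next highest library, and the other 5 libraries were also not alike, since both remaining WT libraries lay above all 3 KO libraries. Intervals here and below cover counting error only.

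**Figure D1:**
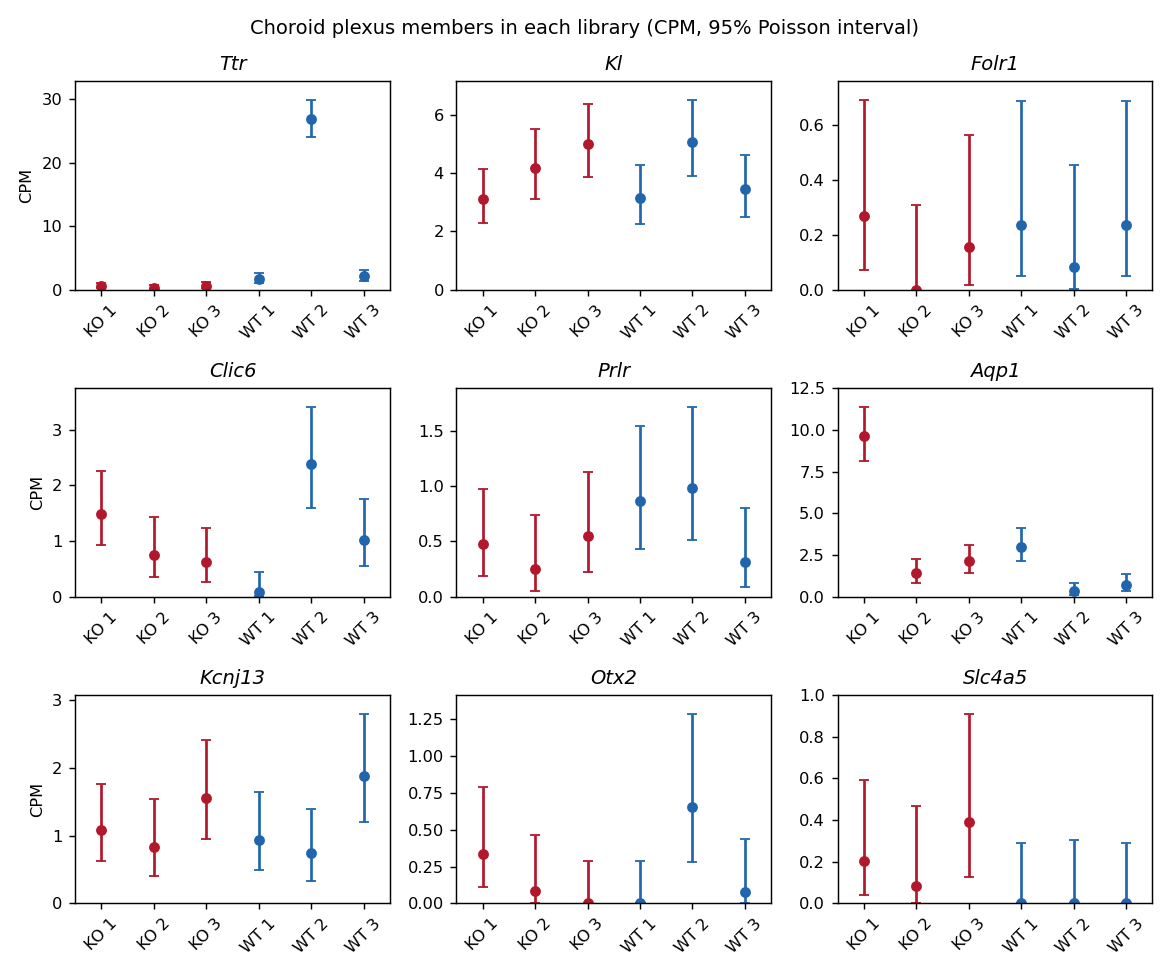
Level of each of the 9 choroid plexus members in each library, in CPM on a linear axis of its own for each gene, with KO libraries in red and WT libraries in blue. Points are single libraries and bars are exact 95% Poisson intervals of the fragment count. *Ttr* reached 26.9 CPM in WT replicate 2 and at most 2.12 CPM elsewhere, and *Aqp1* was highest in KO replicate 1 at 9.67 CPM. The intervals of the members other than *Ttr* in WT replicate 2 overlapped those of at least 1 other library, though for *Clic6* and *Aqp1* not those of all.

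Among the other members, *Clic6*, *Otx2* and *Prlr* stood at more than 2 times the median of the other libraries in WT replicate 2, all from 29 fragments or fewer. *Clic6* (chromosome 16, 92282624 to 92338131, plus strand) was at 2.37 CPM there (29 fragments, interval 1.59 to 3.41), where the median of the other 5 libraries would have given 9.21 fragments. Its level was 1.49, 0.754 and 0.625 CPM in the KO libraries and 0.0784 and 1.02 CPM in WT replicates 1 and 3. The interval of WT replicate 2 overlapped that of KO replicate 1 (0.932 to 2.25), the next highest library, and that of WT replicate 3. It lay above those of KO replicates 2 and 3 and WT replicate 1. The *Clic6* excess of 3.15 times the median was small beside the spread of *Clic6* itself, which had 1 fragment in WT replicate 1 and 22 in KO replicate 1.

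*Otx2* (chromosome 14, 48895134 to 48911276, minus strand) had 8 fragments in WT replicate 2, or 0.655 CPM with an interval of 0.283 to 1.29. It had 5, 1 and 0 fragments in the KO libraries and 0 and 1 in WT replicates 1 and 3. KO replicate 1, with 0.338 CPM and an interval of 0.110 to 0.789, was again the next highest library. At these counts *Otx2* was highest in WT replicate 2, but its interval there overlapped that of every other library. The overlap was slight for KO replicate 3 and WT replicate 1, whose intervals ended at 0.288 and 0.289 CPM.

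OTX2 binds the sequence TAATCC, and the 250 bases before each RefSeq transcription start of the members were searched for it on both strands in the GRCm38.p6 assembly. Windows were at hand for 6 members (11 windows, some genes having several starts), with *Ttr*, *Folr1* and *Clic6* not searched here. The motif stood in 1 of the 11 windows, before 1 of the starts of *Otx2* itself, against 6.25% of all 32851 windows of this length. That site is shown because it is the single match among the members, 211 bases before the start. It is printed along the minus strand, on which *Otx2* is read, and the capitals mark the reverse complement of TAATCC, which itself lies on the plus strand.
Otx2, chr14:48665303-48665332: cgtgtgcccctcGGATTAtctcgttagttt
The match is a description of the letters, and binding was not measured.

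The receptors *Prlr* and *Kl* were also highest in WT replicate 2, by margins within counting error. *Prlr* (chromosome 15, 10177324 to 10349266, plus strand) had 12 fragments in this library, 2.08 times the median of the other 5, against 11 and 4 in WT replicates 1 and 3 and 7, 3 and 7 in the KO libraries. *Kl* (chromosome 5, 150876072 to 150917282, plus strand) was at 5.08 CPM in WT replicate 2 and at 5.0 CPM in KO replicate 3, with 3.11 to 4.19 CPM in the remaining 4 libraries. *Kl* had 40 or more fragments in every library and was the most evenly measured member, its highest level being 1.63 times its lowest. With library totals alone in place of TMM scaling, *Kl* was no longer highest in WT replicate 2.

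The other 4 members were not raised in WT replicate 2. *Aqp1* (chromosome 6, 55313417 to 55325540, plus strand) had its lowest level of all 6 libraries there, 0.327 CPM from 4 fragments (interval 0.0892 to 0.838). The remaining libraries held 0.706 and 2.98 CPM in WT and 9.67, 1.42 and 2.11 CPM in KO, so the *Aqp1* level of WT replicate 2 was 0.155 times their median. The water channel and transthyretin thus took opposite places in this library, the lowest and the highest.

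*Kcnj13* (chromosome 1, 87314085 to 87322451, minus strand) was also lowest in WT replicate 2, with 9 fragments (0.737 CPM), against 12 and 24 in the other WT libraries and 16, 10 and 20 in the KO libraries. Its interval in WT replicate 2 (0.337 to 1.40 CPM) overlapped that of every other library, WT replicate 3 included (1.21 to 2.80 CPM). *Kcnj13* lies inside *Gigyf2*, a gene of the opposite strand with 931 to 1224 fragments per library, and the counts were made by strand. *Prlr*, *Clic6* and *Otx2* each overlap a gene of their own strand that had at most 1 fragment in any library. Fragments that fall on exons of more than 1 gene of a strand were not counted, and the part of this in the counts of these 3 members was not tested. *Folr1* (chromosome 7, 101507538 to 101519995, minus strand) had 1 fragment in WT replicate 2 and 0 to 4 in the others. *Slc4a5* (chromosome 6, 83196810 to 83281927, plus strand) had none there, with an interval that ended at 0.302 CPM, and none in the other WT libraries.

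**Figure D2:**
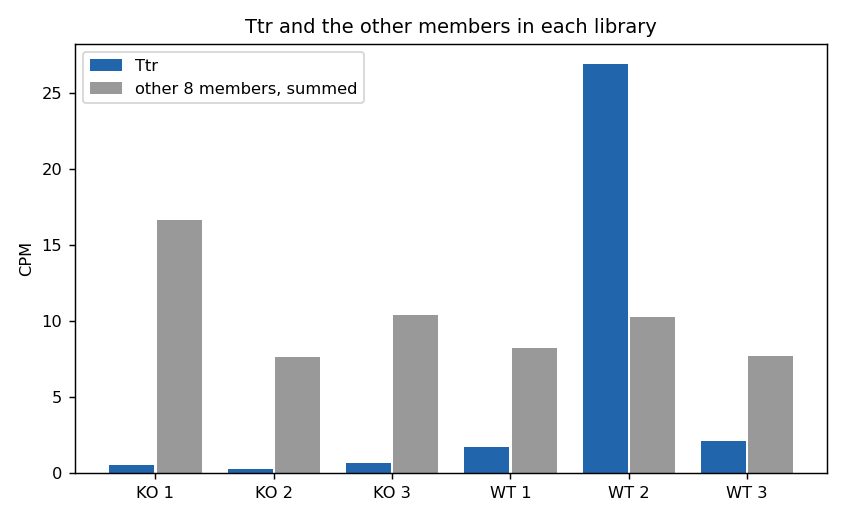
Level of *Ttr* (blue) and the summed level of the other 8 members (grey) in each library, in CPM. *Ttr* in WT replicate 2 was at 26.9 CPM, while the other 8 members together were at 10.2 CPM, inside the range of the other 5 libraries (7.62 to 16.6 CPM).

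Added together, the 8 members other than *Ttr* did not set WT replicate 2 apart. Their sum was 10.2 CPM in this library, 8.23 and 7.69 CPM in WT replicates 1 and 3, and 16.6, 7.62 and 10.4 CPM in the KO libraries. In WT replicate 2 the sum held 5.08 CPM of *Kl*, but only 8 fragments of *Otx2*, 1 of *Folr1* and none of *Slc4a5*. How many fragments of these members would come with a *Ttr* excess of this size was not tested. *Aqp1* made most of the sum in KO replicate 1. Without *Aqp1* the remaining 7 members summed to 9.90 CPM in WT replicate 2, the highest of the libraries, against 5.25 to 8.28 CPM in the other 5. *Ttr* made up 72.4% of all fragments of the 9 members in WT replicate 2, 17.3% and 21.6% in WT replicates 1 and 3, and 3.15% to 5.67% in the KO libraries, so its share also differed between the groups without the outlying library.

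Levels of different genes were compared per length, as FPKM (CPM divided by the length of the exons in kilobases). Over the 5 libraries other than WT replicate 2, the median FPKM ran in the order *Kcnj13* (0.852), *Aqp1* (0.803), *Ttr* (0.527), *Kl* (0.370), *Clic6* (0.193), *Folr1* (0.102), *Prlr* (0.0309), *Otx2* (0.0186) and *Slc4a5* (0.0144). Neighbours in this order had overlapping ranges over these 5 libraries. These medians pool 3 KO and 2 WT libraries, and in WT replicates 1 and 3 *Ttr* was the leading member (1.45 and 1.79 FPKM), while in each KO library *Kcnj13* or *Aqp1* led. In WT replicate 2 *Ttr* was at 22.6 FPKM, and the next members were *Clic6* (0.607), *Kcnj13* (0.580) and *Kl* (0.544).

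The excess of WT replicate 2 was set beside that of all 19084 genes tested. It is the log2(CPM + 0.1) of this library minus the median of the other 5, and the added 0.1 CPM makes it smaller for low genes. *Ttr* had the highest excess of all, 5.22 on this log2 scale. *Otx2* followed at 2.08 (rank 16), *Clic6* at 1.54 (rank 76), *Prlr* at 0.92 (rank 366) and *Kl* at 0.54 (rank 957), while *Kcnj13* was at -0.50 and *Aqp1* at -2.37 (rank 19044). Of the 6 tested members other than *Ttr*, 4 were highest in WT replicate 2, where 18.4% of all tested genes were highest, and 2 were lowest in it, where 18.8% were lowest. Counting *Ttr*, 3 members had an excess of at least 2-fold on this scale (*Prlr*, at 0.92, did not), against 1.54% of tested genes. *Ttr* and the library were chosen for this excess, and the filter let *Otx2* in through this library alone, so these counts describe the members and support nothing further.

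**Figure D3:**
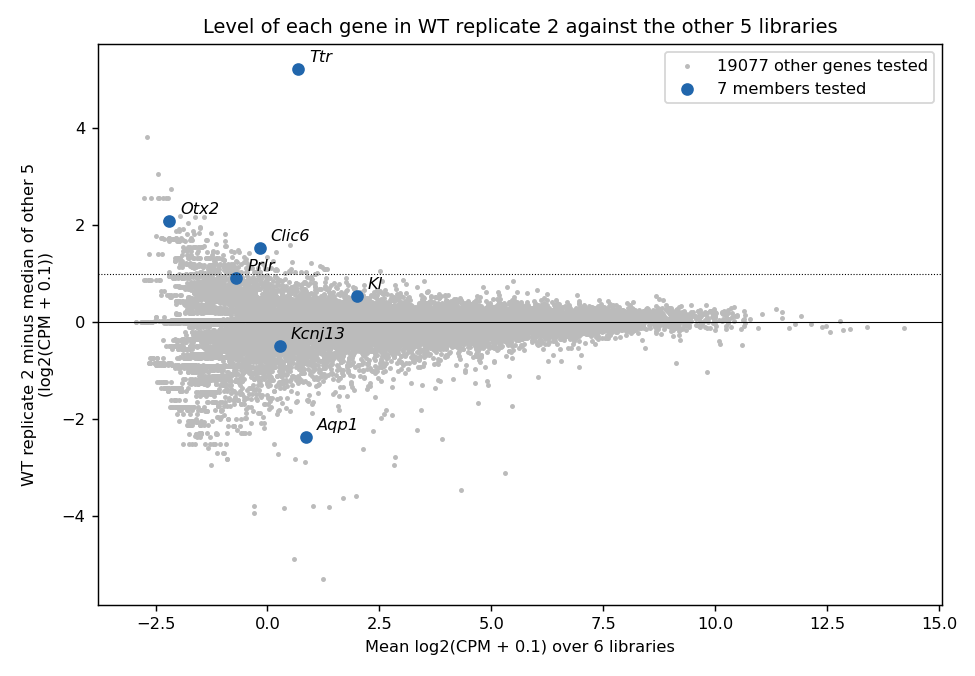
Excess of WT replicate 2 (log2(CPM + 0.1) minus the median of the other 5 libraries) against mean log2(CPM + 0.1) over the 6 libraries, for the 7 members tested (blue) and the 19077 other genes tested (grey); the dotted line marks a 2-fold excess. *Ttr* stood alone at 5.22, *Otx2* and *Clic6* lay above the dotted line at low levels, and *Aqp1* lay far below 0 at -2.37.

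The *Ttr* value also stood out by size among the single-library deviations of genes above a set level. Among the 15364 genes whose mean log2 CPM was 0 or more, each measured in 6 libraries, the *Ttr* excess of WT replicate 2 was the third highest of 92184 values, after *Xist* in KO replicate 1 (12.88) and in WT replicate 1 (12.37). Within WT replicate 2 the next gene of this level was *Chn1os3*, a noncoding transcript, at 1.6, and 25 such genes in all were at least 2-fold up in this library. No other gene at this level came near *Ttr* in WT replicate 2. *Ttr* itself, with a median of 0.625 CPM in the other 5 libraries, reached this mean level only through WT replicate 2. Genes as low as that elsewhere were mostly left out, and some under the level had an excess of 2.56.

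By a measure of likeness, the mean absolute difference from *Ttr* of log2(CPM + 0.1), centred on the 5 other libraries and taken over all 6, the nearest of 15360 candidate genes were *Chn1os3* (1.09), *Grin1os* (1.1), *Ccl28* (1.13), *Ccdc96* (1.15), *1500002C15Rik* (1.20), *Pter* (1.20), *Gna15* (1.21), *Sco2* (1.22), *A430108G06Rik* (1.23) and *Gm37940* (1.24). Candidates were the genes of that same mean level that are not members. The median candidate differed by 1.59, so even the nearest of them was not close. *Chn1os3* had 40 fragments in WT replicate 2, 16 and 20 in the other WT libraries, and 13, 10 and 13 in the KO libraries. None of these genes is a choroid plexus marker in the lists used here.

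A wider list of 29 further choroid plexus genes was read in the same way, and 19 of them were tested. In WT replicate 2, 3 of the 19 were highest (15.8%, against 18.4% of all tested genes), 5 were lowest, none was 2-fold up, and the median excess was 0.04, against -0.01 over all genes tested. The genes of highest level were *Enpp2*, the enzyme autotaxin, *Igfbp2*, a binding protein of insulin-like growth factors, *Cab39l* and the sulfatase *Sulf1*. *Enpp2*, which oligodendrocytes also express, had 2285 fragments in WT replicate 2 and 2163 to 2727 in the others. *Igfbp2*, also made in the meninges, had 244 fragments in WT replicate 2 and 359 to 710 elsewhere, its lowest library being the one with most *Ttr*. *Cab39l* was highest in WT replicate 2, with 453 fragments against 345 to 405 elsewhere and 1.36 times the median of the other 5 libraries. *Sulf1* was at 0.92 times that median.

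The 10 untested genes of this list include some of the most specific epithelial markers. They had 4 fragments or fewer in every library, WT replicate 2 included. *Krt8*, *Steap1* and *Slc16a8* had no fragment there, and *Kcne2*, *Cldn2*, *Krt18* and *Mfrp* had 1 each (these 7 genes were named after their values were seen). *Tmem72* had 4 fragments in WT replicate 2, 4 in KO replicate 1 and 0 or 1 in the remaining 4 libraries. *Calml4* had 3 fragments in WT replicate 2, 3 in WT replicate 3 and none in the other 4 libraries. By CPM *Tmem72* (0.327), *Calml4* (0.246) and *Mfrp* (0.0819) were highest in WT replicate 2. *Sostdc1*, also named after its values were seen, had 2 fragments there and 1 to 3 elsewhere. The summed level of all 29 genes was 344.9 CPM in WT replicate 2, under the 355.9 to 383.7 CPM of the other 5 libraries. *Enpp2* alone made 187 CPM of it in WT replicate 2.

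**Figure D4:**
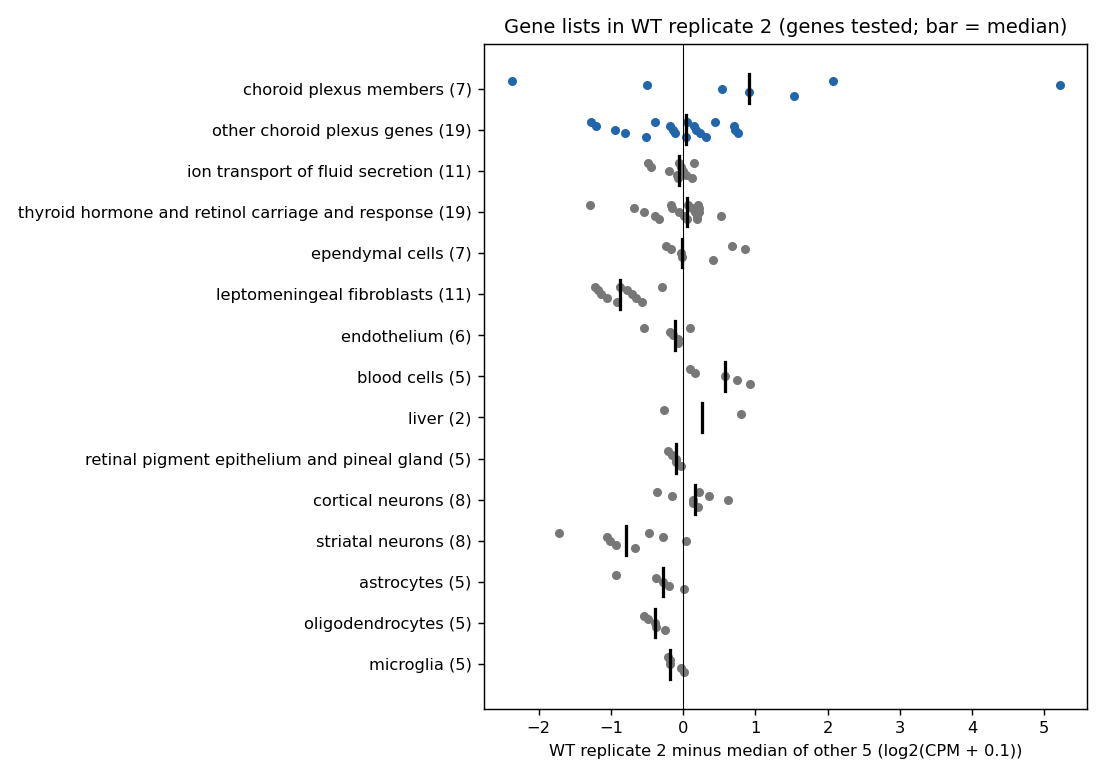
Excess of WT replicate 2 (log2(CPM + 0.1) minus the median of the other 5 libraries) for the tested genes of the choroid plexus lists (blue) and of other lists (grey), with the number tested in parentheses; points are genes and black bars are medians. *Ttr* is the point at 5.22, the 19 other choroid plexus genes centred on 0.04, and the leptomeningeal genes lay to the left with a median of -0.88.

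Genes that work with the members were near the level of the other libraries in WT replicate 2. Of 11 genes for the ion transport of fluid secretion, 3 were highest and 3 lowest in it (27.3% each), and the median excess was -0.06. The shares over all tested genes were 18.4% highest and 18.8% lowest. The bicarbonate transporter *Slc4a10*, which neurons also express, was at 1.11 times and the carbonic anhydrase *Car2* at 0.939 times the median of the other 5 libraries. Of 19 tested genes for thyroid hormone and retinol carriage and response, the functions *Ttr* serves, 4 were highest (21.1%) and 5 lowest (26.3%). Their median excess was 0.05. The thyroid hormone receptor *Thra* was at 1.09 times, its target *Klf9* at 1.17 times and the deiodinase *Dio2* at 0.797 times the median of the other libraries. No gene of these lists reached a 2-fold excess.

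The lists tied to the receptors and the channels had medians at or under 0. None of 8 Klotho partners was highest in WT replicate 2, with a median excess of -0.31, and its receptors *Fgfr3* and *Fgfr1* were at 0.882 and 0.735 times the median of the other libraries. Of 6 tested genes of prolactin signalling, 1 was highest (median -0.04), and the hormones *Prl* and *Gh* had no fragment in any library. Of 9 folate genes, 1 was highest (median -0.16). Of 13 tested close relatives of the members, such as the astrocytic potassium channel *Kcnj10* and the bicarbonate transporter *Slc4a10*, 2 were highest (median -0.15). Of all tested genes 18.4% were highest and 18.8% lowest in WT replicate 2. Lowest there were 3 of the Klotho partners (37.5%), 5 of the folate genes (55.6%), 5 of the close relatives (38.5%) and 0 of the prolactin genes.

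Markers of other tissues that could be cut along with the cortex were read beside the *Ttr* excess. The 11 leptomeningeal genes, of the membranes that cover the brain, were lowest in WT replicate 2 in 10 cases, against 18.8% of all tested genes, and summed to 92.3 CPM there against 146 to 221 CPM in the others. *Fmod* and *Col1a2*, a proteoglycan and a collagen of these fibroblasts, were at 0.430 and 0.609 times the median of the other libraries. *Igfbp2* and *Slc13a4* (86 fragments in WT replicate 2, 190 to 219 elsewhere, named after its values were seen), counted above among the choroid plexus genes, took the same low place. The part of leptomeningeal content in the values of the wider choroid plexus list was not tested.

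Ependymal genes, which line the ventricles next to the choroid plexus, summed to 12.1 CPM in WT replicate 2 and 9.25 to 14.5 CPM in the others, and their master regulator *Foxj1* had 36 fragments there and 33 to 49 elsewhere. Liver genes, since hepatocytes are the other large source of *Ttr*, summed to 1.06 CPM against 0.670 to 1.28 CPM, and *Alb* had no fragment in WT replicate 2. Genes of the retinal pigment epithelium and pineal gland, which also express *Ttr*, *Otx2* or *Kcnj13*, summed to 17.5 CPM against 17.0 to 22.1 CPM, with 2 fragments of the pineal enzyme gene *Asmt* in WT replicate 2 and at most 1 elsewhere. Blood cell genes summed to 59.1 CPM against 35.6 to 61.8 CPM. All 4 sums lay inside the range of the other 5 libraries.

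For cells of the cortex and nearby, the sums of WT replicate 2 were within or under the range of the other libraries. Striatal neuron genes summed to 180.9 CPM against 165 to 331 CPM and oligodendrocyte genes to 1760 CPM against 1594 to 2661 CPM. Astrocyte genes summed to 812 CPM against 939 to 1270 CPM, microglial genes to 259 CPM against 274 to 310 CPM and endothelial genes to 198 CPM against 207 to 246 CPM, each lower than in any other library. In bulk tissue fewer cells of a type and less RNA per cell cannot be told apart. The part of these differences in the *Ttr* value was not tested.

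KO was then compared with WT by limma-voom (two-sided), with the p-values of all genes adjusted by the Benjamini-Hochberg procedure. Of the 7 members tested none passed the adjusted threshold of 0.05 and none had an unadjusted p-value under it. The background was 0.0% of the 19084 genes at the adjusted and 7.82% (1492 genes) at the unadjusted threshold, and the edgeR quasi-likelihood test gave 0 and 1507 genes and DESeq2 1 and 902. The unadjusted result depended on the fit. In the edgeR quasi-likelihood test the unadjusted p-value was 0.00133 for *Ttr* and 0.0348 for *Aqp1* (adjusted p = 0.631 for both), and over the 15 alternatives it was under 0.05 in 8 for *Ttr* and in 6 for *Aqp1*, while no adjusted p-value of a member was under 0.05 in any (DESeq2 gave no p-value for *Ttr*).

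*Ttr* was lower in the KO libraries, with 0.472 ± 0.196 CPM (SD, n = 3) against 10.2 ± 14.4 CPM (SD, n = 3) in WT, and the groups did not overlap, as for 6.29% of all tested genes in this direction. By limma-voom, log2(KO/WT) of *Ttr* was -3.22 with a standard error (SE) of 1.55 (adjusted p = 0.637), a value that rests on the library chosen for its *Ttr* level. Without WT replicate 2 the difference in *Ttr* was -1.99 (SE 0.47) in limma-voom, with an unadjusted p of 0.00123 and an adjusted p of 0.901. It was the fifth lowest p-value of 18936 genes tested in that fit, of which 4.13% had an unadjusted p-value under 0.05 (1.84% lower in KO) and 0.00528% an adjusted one. The direction of *Ttr* thus did not depend on WT replicate 2, but it did not pass the adjustment with or without this library. Because *Ttr* was chosen by its counts in these same data, this p-value and rank are descriptions and no independent test.

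**Figure D5:**
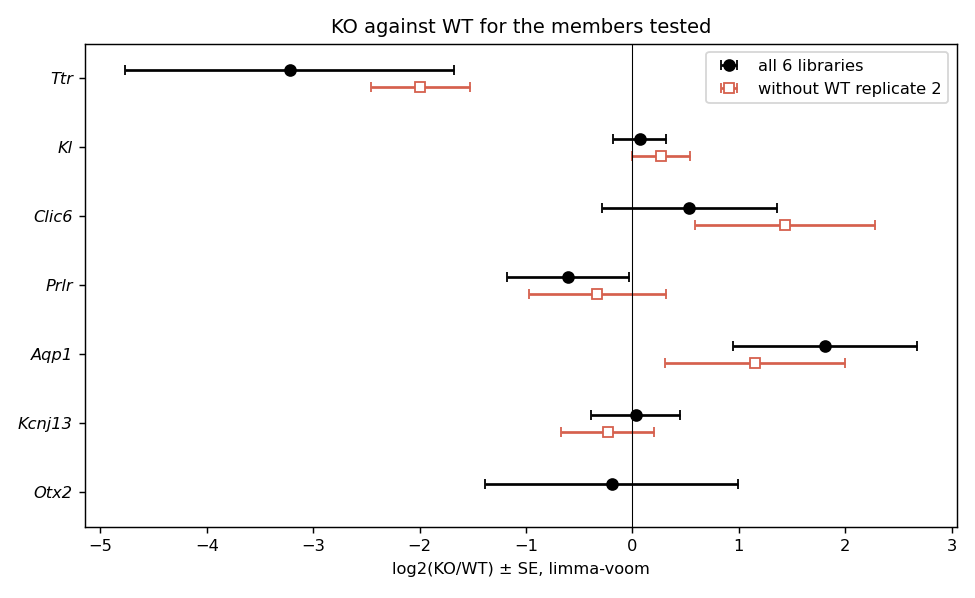
log2(KO/WT) of the members tested, from limma-voom, with bars of ± 1 SE, for all 6 libraries (black circles) and without WT replicate 2 (open squares; *Otx2* was not tested there). *Ttr* went from -3.22 to -1.99 with a smaller error, *Clic6* from 0.54 to 1.44, and *Kl* and *Kcnj13* stayed near 0.

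*Aqp1* lay in the other direction, with a KO mean of 4.40 ± 4.57 CPM and a WT mean of 1.34 ± 1.43 CPM (SD, n = 3 each), with a log2(KO/WT) of 1.81 (SE 0.86, limma-voom adjusted p = 0.637) and overlapping groups. Its highest library was KO replicate 1, at 6.79 times the median of the other 5 and 3.25 times the next, WT replicate 1. Without KO replicate 1 the *Aqp1* difference was 0.91 (SE 0.60, limma-voom adjusted p = 0.925). KO replicate 1 and WT replicate 1 are also the libraries with *Xist*. In the pair of *Xist* libraries *Aqp1* reached 9.67 CPM in the knockout and 2.98 CPM in the wild type. In the 4 others it reached 1.42 and 2.11 CPM in the knockouts and 0.327 and 0.706 CPM in the wild types. The pair is 1 library per group, and its KO library is the one high in olfactory bulb genes. With the level of Y-linked genes as a covariate the *Aqp1* difference was 1.57 (SE 0.29), with an unadjusted p of 7.7e-05 and an adjusted p of 0.0611 in limma-voom. That fit called more genes in general. It had 2013 genes at an unadjusted and 21 at an adjusted p under 0.05, against 1492 and 0 without the covariate.

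The 7 olfactory bulb genes, a list written after their values and those of *Aqp1* were seen, were highest in KO replicate 1 in every case. Of all tested genes 22.1% were highest in that library, the most of any library. In sum the 7 genes were lowest in WT replicate 2. These are the same outer libraries as for *Aqp1*, which is a description only, since the list was written with the *Aqp1* values known. The sums of the 7 genes were 335.7, 75.8 and 48.0 CPM in the KO libraries and 84.4, 22.5 and 49.4 CPM in the WT libraries. The part of this tissue, of sex and of KO replicate 1 itself in the *Aqp1* values was not tested. *Ttr* had no such order, with its KO replicate 1 level of 0.541 CPM lying between those of the other KO libraries.

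For the remaining tested members the differences between KO and WT were within their errors. In limma-voom, log2(KO/WT) was 0.07 (SE 0.25) for *Kl*, 0.54 (SE 0.82) for *Clic6*, -0.61 (SE 0.57) for *Prlr*, 0.03 (SE 0.42) for *Kcnj13* and -0.19 (SE 1.19) for *Otx2*, with adjusted p-values from 0.777 to 0.988. The mean of *Kl* was 4.10 ± 0.948 CPM in KO against 3.89 ± 1.04 CPM, and that of *Kcnj13* was 1.16 ± 0.369 CPM against 1.19 ± 0.612 CPM (SD, n = 3 each). The sign of *Clic6* turned with the processing, being -0.24 in the edgeR quasi-likelihood test. *Slc4a5*, too low to be tested, had 3, 1 and 5 fragments in the KO libraries and none in the WT libraries. With 3 fragments put in for the WT group the ratio of KO to WT was 2.86. Counting error of the KO fragments is not in this ratio, so it is no lower bound. Among tested genes, 6.72% had all KO values above all WT values. *Folr1* had 6 fragments in KO and 7 in WT over the 3 libraries of each group.

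The partner lists had no gene past the adjusted threshold in the comparison of KO with WT, and those with an unadjusted limma-voom p-value under 0.05 are given by count, beside 4.38% of tested genes higher and 3.44% lower in KO. Of the 19 other choroid plexus genes 1 was higher and 1 lower, of the 11 ion transport genes 1 was higher, and of the 19 thyroid hormone and retinol genes 2 were higher and 3 lower. Prolactin signalling (6 genes), folate (9) and close relatives (13) each had 1 higher, and the 8 Klotho partners none. The 5 thyroid hormone and retinol genes, named after their values were seen, went both ways by limma-voom, each with an adjusted p of 0.635. Higher in KO were *Aldh1a1*, an enzyme that makes retinoic acid (log2(KO/WT) of 0.46, SE 0.12), and *Crabp1*, a retinoic acid binding protein (1.42, SE 0.56, at 2 to 14 fragments a library). Lower in KO were the thyroid hormone receptor *Thrb* (-0.27, SE 0.07), *Rbp4*, the retinol-binding protein that travels with transthyretin (-0.37, SE 0.14), and the thyroxine transporter *Slco1c1* (-0.23, SE 0.10). *Rbp4* was at 9.17 CPM in WT replicate 2, 1.16 times the median of the other 5 libraries. This lay under the other WT libraries (11.4 and 9.58 CPM) and above the KO libraries (7.54 to 7.91 CPM).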

How the data were processed

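The deposited values are raw counts of fragments per gene, 1 table per sample. Per the submitters' processing notes, read quality was checked with FastQC 0.11.8 and the authors aligned with STAR 2.7.9a to GRCm39. Per the file headers, exonic fragments of strand-specific polyA libraries were counted with featureCounts 1.6.0 (paired-end, reverse-stranded, GENCODE M31) with no option for multi-mapping or overlapping reads. The paper's methods give an older assembly and annotation than the headers, and coordinates follow the headers. Replicates were not pooled or normalized before deposition.

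Groups were taken from sample titles. Symbols came from GENCODE M21 by gene identifier (52073 of 56923 matched). Genes with at least 6 fragments in at least 1 library (19084) were tested with TMM factors (edgeR 4.0.16), voom and limma 3.58.1 under R 4.3.3, as in the study's methods, without covariates. The code was tested on simulated counts. DESeq2 1.42.0, edgeR's quasi-likelihood test, other scalings, filters and weights, a replicate block, a covariate for Y-linked genes and leaving out each library were the alternatives. Promoter windows are from RefSeq on GRCm38.p6.

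The members and the lists were chosen with earlier results of these data known. Always named were the 9 members and *Pla2g4e*, and of each other list at most the 4 genes of highest mean CPM and any gene 2-fold up in WT replicate 2, as well as the 10 genes most like *Ttr*. Other names are marked in the text, except those of *Xist*, *Gigyf2*, *Prl*, *Gh* and *Alb*, which serve as checks. The deviations of same-numbered samples from their group means correlated at 0.23 for replicate 1, the pair of *Xist* libraries, and at 0.045 and -0.0136 for the others, so the numbers were not taken as pairs.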

Additional observations from a re-analysis of the deposited data

How the results depend on the processing

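The *Ttr* excess of WT replicate 2 ranged from 4.55 to 5.38 (log2) over 10 alternatives, and log2(KO/WT) of *Ttr* from -4.44 to -1.99 over 15, with adjusted p-values from 0.0885 to 0.925. No member was called at an adjusted p under 0.05 in any of them. Of 102 alternative values of the members' log2(KO/WT), 87 kept their direction and 15 turned, and the cause was not tested. *Clic6* was -0.24 with the edgeR quasi-likelihood test, -0.27 with DESeq2, -0.15 with the covariate for Y-linked genes and -0.73 to 1.44 without single replicates (-0.73 without WT replicate 1). *Kcnj13* was -0.034 with the quasi-likelihood test, -0.039 with DESeq2 and -0.23 to 0.41 without single replicates. Without single replicates *Kl* was -0.091 to 0.27 and *Otx2* -1.15 to 0.64. With the replicate number as a block, which the check of the numbers did not back, log2(KO/WT) was -0.31 for *Clic6*, -0.028 for *Kcnj13*, -4.10 for *Ttr* (adjusted p = 0.0885) and 1.69 for *Aqp1* (adjusted p = 0.0639, limma-voom), with 0 genes called and 1693 at an unadjusted p under 0.05. The excess was 0.997 for *Otx2* with 0.5 CPM added and -2.38 for *Slc4a5* with 0.02 CPM added. Genes called at an adjusted p under 0.05 were 0 in limma-voom (1492 at an unadjusted p under 0.05), 1 in DESeq2, 21 with the covariate for Y-linked genes and 0 to 1 without single replicates (1 without WT replicate 2). Genes at an unadjusted p under 0.05 were 902 in DESeq2 and 782 to 2239 without single replicates (782 when WT replicate 2 was left out, 830 for KO replicate 1, 2239 for WT replicate 3). With library totals alone, 4 instead of 5 members were highest in WT replicate 2. *Otx2* was not tested with edgeR's filterByExpr or without WT replicate 2, nor *Prlr* with filterByExpr. *Folr1*, *Slc4a5*, *Otx2* and *Prlr* had at most 12 fragments a library, and depth limits what their values can show.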
